A study of Mus musculus with 8 samples.

Results

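The genes described are the proteasome genes of the mouse, chosen by symbol: all Psma, Psmb, Psmc and Psmd genes with a number, the activators Psme1 to Psme4, the inhibitor Psmf1 and the assembly chaperones Psmg1 to Psmg4. Among the 19938 genes with a probe set of their own on the array, 49 carried such a symbol, on 55 probe sets. The name pattern also takes in Psmc3ip, a meiotic recombination factor that is no part of the proteasome, so 48 of the 49 are proteasome genes. All 49 passed the filter on low signal, which kept genes with at least 2 arrays above the 40th percentile of their array, and 47 passed a stricter one at the 60th percentile. Psma8, a testis alpha subunit, and Psmb11, the thymus beta subunit, did not pass the stricter one.

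Dendritic cells (DCs) arise in bone marrow from common DC progenitors (CDPs), and the pre-CD8 DC is a committed precursor of the CD8-type DC that cross-presents antigen. The series holds 8 Affymetrix arrays of sorted marrow cells: 3 of Zeb2hi CDPs, 3 of Zeb2low CDPs and 2 of pre-CD8 DCs. Every sample came from mice heterozygous for a Zeb2-GFP fusion reporter, so each group carries the reporter allele and none is free of it, and Zeb2hi and Zeb2low name the level of the transcription factor Zeb2. The cells were sorted into medium with Flt3 ligand, and the labels give no age, no sort gates and no mouse or sort behind each array. P-values therefore reflect the spread between arrays alone, which may be technical.

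The proteasome is the protease that destroys proteins tagged with ubiquitin. Its 20S core is a barrel of alpha and beta rings in which the beta subunits Psmb5, Psmb6 and Psmb7 cut proteins, and its 19S cap binds ubiquitin chains, unfolds the substrate with a ring of ATPases and feeds it into the barrel. In DCs and in cells exposed to interferon gamma, Psmb8, Psmb9 and Psmb10 replace the catalytic subunits Psmb5, Psmb6 and Psmb7 in newly built cores, and this immunoproteasome makes many of the peptides shown on MHC class I. Psmb8 and Psmb9 lie in the MHC beside the peptide transporter genes Tap1 and Tap2.

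Promoters of 5 proteasome genes are given first, to show the sequence before the start of core, cap and immunoproteasome genes described below. Known regulators of these genes bind the antioxidant response element core TGACNNNGC (Nfe2l1), the CCAAT box (NF-Y), the ETS core CCGGAAG, the interferon-stimulated response element core (GAAA, any 2 bases, GAAA) and the gamma-activated site core TTCNNNGAA. Each motif was searched on both strands in the 250 bases before the annotated start, from RefSeq's sequences of GRCm38.p6. The table matched 41 of the 49 genes, with 44 windows. The 5 windows shown are those of Psma1 (chr7:114276117-114276366, minus strand), Psmd12 (chr11:107479278-107479527, plus strand), Psmb5 (chr14:54617996-54618245, minus strand), Psmb9 (chr17:34187331-34187580, minus strand) and Psmb8 (chr17:34197945-34198194, plus strand). Psma1 and Psmd12 stand for core and cap genes that were lower in both other groups than in Zeb2hi CDPs, Psmb8 and Psmb9 for the immunoproteasome, and Psmb5 for a gene with little difference. Each is written 5′ to 3′ on the gene's strand and ends at the base before the start, and capitals mark the motif matches.
Psma1: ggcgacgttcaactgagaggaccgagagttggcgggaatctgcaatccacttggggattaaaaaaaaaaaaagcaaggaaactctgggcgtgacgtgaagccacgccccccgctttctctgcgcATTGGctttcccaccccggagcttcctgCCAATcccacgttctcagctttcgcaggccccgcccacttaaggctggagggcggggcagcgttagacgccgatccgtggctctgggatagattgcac
Psmd12: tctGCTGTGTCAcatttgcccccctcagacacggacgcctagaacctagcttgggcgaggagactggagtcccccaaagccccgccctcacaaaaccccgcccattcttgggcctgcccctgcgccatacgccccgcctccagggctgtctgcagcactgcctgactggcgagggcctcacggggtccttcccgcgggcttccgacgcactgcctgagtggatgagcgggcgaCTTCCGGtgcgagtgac
Psmb5: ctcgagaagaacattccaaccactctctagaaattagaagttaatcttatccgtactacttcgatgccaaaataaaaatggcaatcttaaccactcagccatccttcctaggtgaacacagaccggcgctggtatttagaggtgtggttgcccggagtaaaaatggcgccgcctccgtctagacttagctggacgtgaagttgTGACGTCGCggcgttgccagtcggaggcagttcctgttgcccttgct
Psmb9: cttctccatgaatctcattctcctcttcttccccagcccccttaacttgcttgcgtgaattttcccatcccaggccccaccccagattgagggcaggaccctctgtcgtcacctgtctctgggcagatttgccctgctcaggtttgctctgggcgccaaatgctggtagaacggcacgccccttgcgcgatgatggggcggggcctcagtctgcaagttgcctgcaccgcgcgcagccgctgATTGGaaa
Psmb8: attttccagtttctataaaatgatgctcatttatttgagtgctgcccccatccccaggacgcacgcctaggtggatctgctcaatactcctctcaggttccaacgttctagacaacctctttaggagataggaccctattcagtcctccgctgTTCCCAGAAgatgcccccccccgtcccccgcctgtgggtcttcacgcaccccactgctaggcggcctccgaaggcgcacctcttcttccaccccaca

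Psma1 held a CCAAT box on each strand, with first bases at -126 and -98 from the start. Psmd12 held a response element core at -247 and an ETS core at -17, both on the opposite strand. Psmb5 held a response element core at -47, Psmb9 a CCAAT box at -8 on the opposite strand and Psmb8 a gamma-activated site core at -97. The ETS core stood in 14 of the 44 windows (31.8%), from 13 genes, against 6.91% of all 32851 windows in the table. CCAAT stood in 15 windows (34.1% against 33.8%), and the response element core in 5 (11.4% against 10.2%), those of Psmb5, Psmb6, Psmc6, Psmd9 and Psmd12. The interferon-stimulated core stood in 3 windows (6.82% against 2.98%) and the gamma-activated core in 2 (4.55% against 7.02%). A match is a string of letters and not a measured binding site, and whether the motifs go with the differences below was not tested.

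The first comparison asks how the proteasome genes differ between the Zeb2low and the Zeb2hi progenitors. Proteasome genes were lower in Zeb2low CDPs across the core, the cap and the assembly factors, and none was higher. At a Benjamini-Hochberg adjusted p under 0.05 in limma, 27 of the 49 genes were lower (55.1%), where 10.3% of all 13356 genes tested were. None of the 49 was higher, against 4.5% of all genes, and none was higher at an unadjusted p under 0.05 either. The median log2 difference of the 49 genes was -0.75, against 0.03 over all genes tested. At least 2-fold lower were 14 of the 49, where 4.84% of all genes were. Under the stricter filter 27 of the 47 genes tested were lower, with a median of -0.75. All 9385 genes kept by that filter had a median of -0.12, with 1903 calls, 72.5% of them lower. In 39 of the 49 every Zeb2low array lay below every Zeb2hi array, which 21.5% of all genes did, and in none did every Zeb2low array lie above (20.2% of all genes). The exceptions in sign were Psmb11 (0.43, adjusted p = 0.178) and Psmg4, a 20S assembly chaperone (0.29, adjusted p = 0.506), both above 0 and neither past the test.

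**Figure D1:**
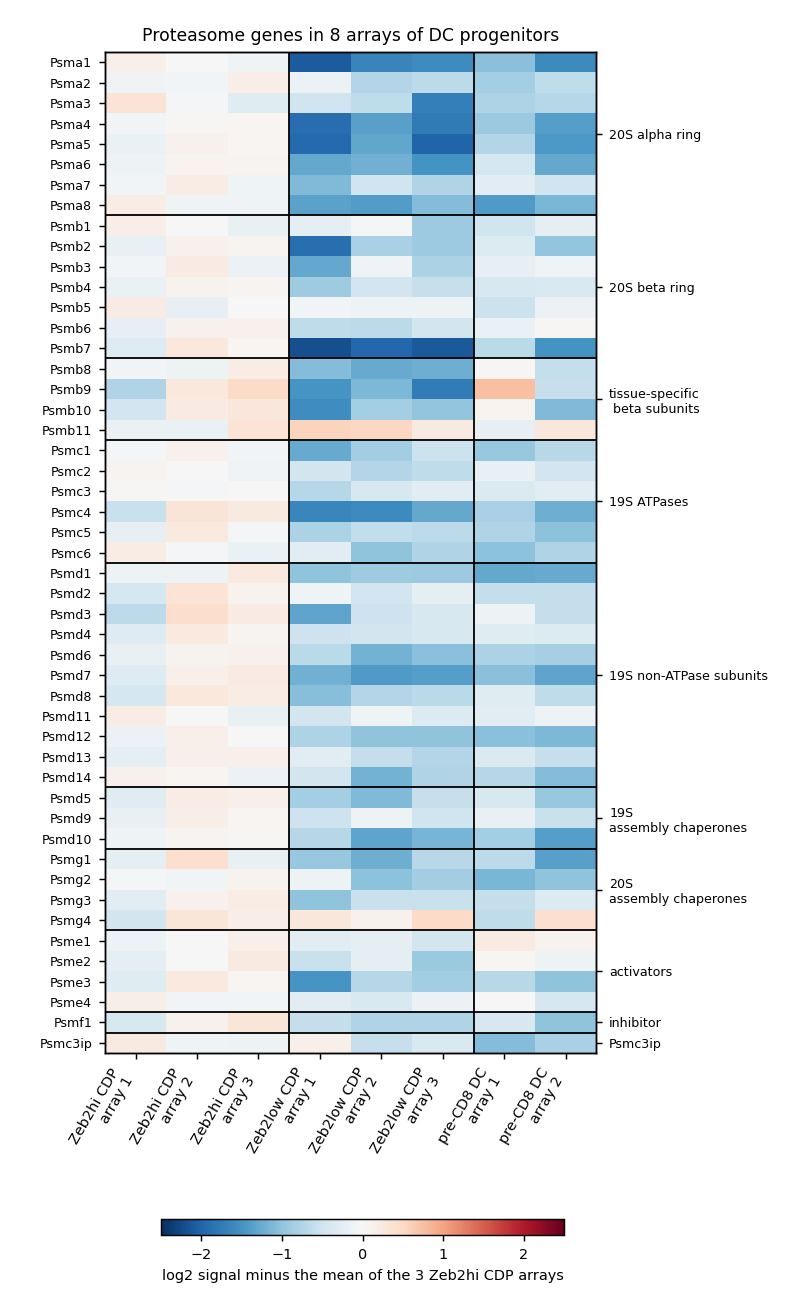
The log2 signal of the 49 genes (rows, by sub-complex) in the 8 arrays (columns), each as its difference from the mean of the 3 Zeb2hi CDP arrays of that gene. Blue is lower and red higher: the Zeb2low columns are blue in most rows, with Psmb11 and Psmg4 as exceptions, and pre-CD8 DC array 1 is red at Psmb9.

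How far this depends on single arrays differed between genes. Of the 27 genes, 11 passed in each of the 8 fits that left out 1 array: Psma1, Psma4, Psma5, Psma6, Psma8, Psmb7, Psmb8, Psmc4, Psmd1, Psmd7 and Psmd12. Psma8, one of the 11, had low signals in its Zeb2low arrays and was highest in its Zeb2hi arrays. The filter on low signal may therefore have kept it through the Zeb2hi group alone. It was not tested under the stricter filter, where 26 of the 27 calls remained and Psmb10 was gained. The number of lower genes was 11 without Zeb2hi array 2, 11 without Zeb2hi array 3 and 15 without Zeb2low array 3. Over all 13356 genes, lower calls fell in these fits too, from 1377 to 358, 406 and 751 in that order. Quantile normalization left 14 of the 27 and centring each array on its median gave 38. Quantile normalization gave 1624 calls over all genes in both directions, against 1978 as reported. Centring gave 2233 lower calls over all genes. The median of all genes moved to -0.14 under that centring, and the median of the 49 genes to -0.91. Relative to all genes the sign was the same under quantile normalization, with medians of -0.53 for the 49 and 0.02 for all.

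Markers of other cells moved with the same groups, in both directions. The summed signal of 10 neutrophil genes was 18063 to 27285 in the Zeb2hi arrays, 23605 to 48236 in the Zeb2low arrays and 32026 to 55700 in the pre-CD8 DC arrays. S100a8, Ngp and Lcn2 were higher in Zeb2low than in Zeb2hi CDPs. Ngp and Lcn2 had overlapping CDP arrays (adjusted p = 0.0490 and 0.0476), and each passed in 1 of 8 leave-one-out fits. With the replicate block over the CDP arrays 8 of the 10 were higher, where 1536 of all 13356 genes were. Mpo was lower with that block (-1.75, adjusted p = 0.0294, against 0.0759 without the block). Elane, like Mpo an early granule gene, was at -1.06 (adjusted p = 0.239). In pre-CD8 DCs S100a8, Camp, Ngp and Lcn2 were higher than in Zeb2hi CDPs. The 4 measured T and NK cell genes summed to 210.1 to 316.6, 515.9 to 924.3 and 507.3 to 535.2 in the order of groups above, with Thy1, Cd3e and Il7r higher in Zeb2low CDPs. Between the CDP groups, the monocyte genes F13a1 (-2.47) and Itgam (2.31), the B cell genes Cd79b (-1.06) and Cd79a (0.96), and the plasmacytoid DC genes Siglech (1.22), Ccr9 (1.10) and Ly6d (1.02) also passed. The other plasmacytoid DC genes, Bst2 (-0.92, adjusted p = 0.0647) and Tcf4 (-0.23, adjusted p = 0.477), did not pass. With the block over the CDP arrays Bst2 was lower (adjusted p = 0.00847). The plasmacytoid DC genes summed to 1186 to 1484 in Zeb2hi and 760 to 1336 in Zeb2low arrays. Car1, the measured erythroid gene, was 9.49 in Zeb2low array 3 and at most 4.97 in the other CDP arrays. In the pre-CD8 DC arrays it was 7.15 and 7.33, above all Zeb2hi arrays, but did not pass in limma (2.98, adjusted p = 0.126). The part of these cells in the proteasome differences was not tested.

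The markers of the sorted cells varied among themselves. Flt3 lay between 9.07 and 9.63 in the 8 arrays. Between the CDP groups Cd34 (-1.45, adjusted p = 0.0577) and Csf1r (-0.96, adjusted p = 0.0562) did not pass without a block. With the replicate block over the CDP arrays, Cd34, Csf1r and Irf8 were lower and Csf2ra higher (adjusted p = 0.00237, 0.00476, 0.0213 and 0.0207). In pre-CD8 DCs against Zeb2hi CDPs, Cd34 (-3.59) and Csf1r (-1.75) were lower and Csf2ra (1.28) and Kit (1.02) higher. The 6 markers of the CD8-type DC summed to 311.4 to 539.1 in Zeb2hi CDPs, 1586 to 1943 in Zeb2low CDPs and 3356 to 3849 in pre-CD8 DCs. Of these, Id2 (4.35), Tlr3 (3.22) and Batf3 (1.57) were higher in Zeb2low than in Zeb2hi CDPs, while Cadm1 (0.47), Xcr1 (0.22) and Clec9a (0.16) did not pass without the block, and Cadm1 did with it (adjusted p = 0.0349). Against Zeb2hi CDPs, all but Cadm1 were higher in pre-CD8 DCs. In these bulk samples, less of a message per cell cannot be told apart from fewer cells that carry it.

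The alpha ring, which forms the gate of the core, had 6 of 8 genes lower in Zeb2low CDPs, Psma8 at low signal among them. The median log2 difference of the 8 was -1.30. Psma1 had log2 signals of 9.97, 9.83 and 9.75 in the Zeb2hi arrays, 7.76, 8.20 and 8.28 in the Zeb2low arrays, and 8.81 and 8.26 in the pre-CD8 DC arrays. The CDP groups lay far apart, and Psma1 was 3.41-fold lower in Zeb2low CDPs (log2 difference -1.77, SE 0.199, adjusted p = 0.00203). Psma4 had 9.41, 9.52 and 9.53 in Zeb2hi, 7.58, 8.13 and 7.72 in Zeb2low, and 8.55 and 8.10 in pre-CD8 DC arrays. Its Zeb2hi arrays differed by little, and it was 3.20-fold lower in Zeb2low CDPs (-1.68, SE 0.187, adjusted p = 0.00196). Psma5 had 10.28, 10.55 and 10.50 in Zeb2hi, 8.51, 9.14 and 8.45 in Zeb2low, and 9.72 and 9.01 in pre-CD8 DC arrays. It was 3.35-fold lower (-1.75, SE 0.242, adjusted p = 0.00399), and its second probe set gave -1.96.

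The other alpha genes gave smaller differences. Psma6 was lower (-1.32, adjusted p = 0.00716) and so was Psma7 (-0.78, adjusted p = 0.0252, 4 of 8 leave-one-out fits). The call of Psma7 was lost under quantile normalization (adjusted p = 0.101). Psma2 (-0.51, adjusted p = 0.096) and Psma3 (-0.95, adjusted p = 0.0742) did not pass, although their CDP arrays did not overlap. The Zeb2low arrays of Psma3 spread from 8.74 to 9.95, and with the replicate number of the CDP arrays as a block its adjusted p was 0.00959. Psma8 had one of the 3 lowest mean signals among the 49, with 5.26, 4.96 and 4.99 in Zeb2hi, 3.73, 3.67 and 3.99 in Zeb2low, and 3.66 and 3.93 in pre-CD8 DC arrays. It was lower in Zeb2low CDPs (-1.27, SE 0.16, adjusted p = 0.0029), at a signal where RMA values do not show that a gene is expressed.

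The beta ring had 4 of 7 genes lower, with a median of -0.65, and its members ranged from -2.09 to -0.11. Psmb7, the subunit with trypsin-like activity, gave the largest difference of the 49 genes. Its log2 signals were 9.87, 10.47 and 10.24 in Zeb2hi, 8.002, 8.22 and 8.09 in Zeb2low, and 9.52 and 8.71 in pre-CD8 DC arrays. It was 4.25-fold lower in Zeb2low CDPs (-2.09, SE 0.235, adjusted p = 0.00203). Psmb5, the subunit with chymotrypsin-like activity, had 10.40, 9.99 and 10.20 in Zeb2hi, 10.12, 10.07 and 10.08 in Zeb2low, and 9.66 and 10.05 in pre-CD8 DC arrays. Its CDP arrays overlapped, with a difference of -0.11 (SE 0.163, adjusted p = 0.663) that turned to 0.29 under quantile normalization.

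Psmb6, the subunit with caspase-like activity, lay between these. It had 10.83, 11.16 and 11.15 in Zeb2hi, 10.41, 10.40 and 10.59 in Zeb2low, and 10.87 and 11.08 in pre-CD8 DC arrays. The CDP groups did not overlap, and Psmb6 was lower in Zeb2low CDPs (-0.58, SE 0.151, adjusted p = 0.0347, 3 of 8 leave-one-out fits), but not past the test under quantile normalization (adjusted p = 0.500). Among the structural subunits, Psmb2 (-1.20, adjusted p = 0.0299) and Psmb4 (-0.65, adjusted p = 0.0268) were lower, both lost under quantile normalization (adjusted p = 0.0678 and 0.291). Psmb1 (-0.40, adjusted p = 0.253) and Psmb3 (-0.72, adjusted p = 0.106) did not pass. The probe sets of Psmb3 disagreed, since the dimmer one gave -2.16, and Psmb3 passed when the probe sets of a gene were averaged.

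All 3 immunoproteasome genes were at least 2-fold lower in Zeb2low CDPs, and 2 of the 3 passed the test. Psmb8 had log2 signals of 9.84, 9.79 and 10.11 in Zeb2hi, 8.84, 8.65 and 8.69 in Zeb2low, and 9.94 and 9.32 in pre-CD8 DC arrays. It was 2.27-fold lower in Zeb2low CDPs (-1.19, SE 0.185, adjusted p = 0.00631). Psmb9 had 10.56, 11.58 and 11.79 in Zeb2hi, 9.83, 10.18 and 9.57 in Zeb2low, and 12.06 and 10.73 in pre-CD8 DC arrays. The spread within groups was wide, and Psmb9 was 2.73-fold lower in Zeb2low CDPs (-1.45, SE 0.401, adjusted p = 0.0431). That call held in 3 of 8 leave-one-out fits and was lost under quantile normalization (adjusted p = 0.104).

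Psmb10 had 9.04, 9.72 and 9.81 in Zeb2hi, 7.98, 8.67 and 8.53 in Zeb2low, and 9.60 and 8.42 in pre-CD8 DC arrays. Array 1 was the lowest in each CDP group, and the difference of -1.13 (SE 0.339) missed the threshold (adjusted p = 0.0563). With the replicate number of the CDP arrays as a block, its adjusted p was 0.00181, but with the block over all arrays it was 0.0979. Psmb11, whose mean signal was among the 3 lowest, had 4.25, 4.25 and 4.76 in Zeb2hi, 4.97, 4.93 and 4.64 in Zeb2low, and 4.22 and 4.71 in pre-CD8 DC arrays.

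**Figure D2:**
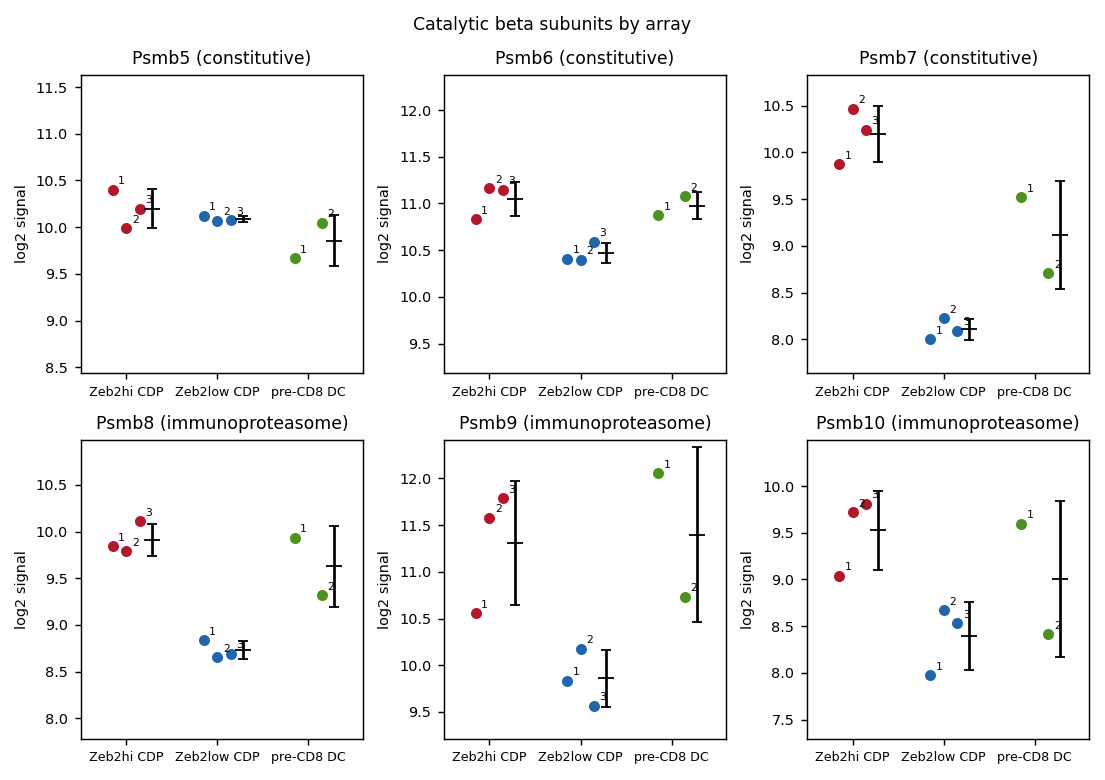
The log2 signal of the constitutive catalytic subunits (top) and the immunoproteasome subunits (bottom) in each array, with the array number beside each point and bars for mean ± SD (n = 3, 3 and 2). The vertical axes do not start at 0 and differ in position but span the same range, and levels are not comparable between genes. Psmb5 overlaps between the CDP groups while Psmb7 is 4.25-fold lower in Zeb2low CDPs, and pre-CD8 DC array 1 lies above array 2 for Psmb7, Psmb8, Psmb9 and Psmb10.

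Each immunoproteasome subunit was set against the subunit it replaces, as the log2 signal of one minus that of the other within an array. Such a difference mixes 2 probe sets, so only its change between groups has meaning. Psmb8 minus Psmb5 was -0.56, -0.19 and -0.09 in Zeb2hi arrays, -1.28, -1.41 and -1.38 in Zeb2low arrays, and 0.27 and -0.73 in pre-CD8 DC arrays. The Zeb2low arrays lay apart below both other groups. Its mean was lower by 1.08 in Zeb2low than in Zeb2hi CDPs, and higher by 1.13 in pre-CD8 DCs than in Zeb2low CDPs (exact permutation p = 0.1 for each, two-sided). That is the smallest p these group sizes allow, and 0.3 after adjustment over the 9 tests of 3 subunit combinations in 3 comparisons.

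Psmb9 minus Psmb6 changed with the same signs, with overlap, and Psmb10 minus Psmb7 with the opposite ones. Psmb9 minus Psmb6 was -0.28, 0.42 and 0.64 in Zeb2hi, -0.57, -0.22 and -1.02 in Zeb2low, and 1.18 and -0.35 in pre-CD8 DC arrays, and the groups overlapped. The changes were -0.87 between the CDP groups and 1.02 from Zeb2low CDPs to pre-CD8 DCs (exact permutation p = 0.2 for each, adjusted p = 0.3). Psmb10 minus Psmb7 was -0.83, -0.74 and -0.43 in Zeb2hi, -0.02, 0.45 and 0.44 in Zeb2low, and 0.08 and -0.29 in pre-CD8 DC arrays. It was higher by 0.96 in Zeb2low than in Zeb2hi CDPs, without overlap (exact permutation p = 0.1, adjusted p = 0.3), as Psmb7 differed more than Psmb10. Against Zeb2hi CDPs, the pre-CD8 DC changes were 0.05, 0.16 and 0.56 for the Psmb8, Psmb9 and Psmb10 combinations (exact permutation p = 1, 1 and 0.2).

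In the 19S cap, 10 of 17 subunit genes were lower in Zeb2low CDPs, and all 17 differences were below 0. The ATPases, which unfold the substrate, had 4 of 6 lower with a median of -0.68. Psmc4 had log2 signals of 8.36, 9.24 and 9.14 in Zeb2hi, 7.28, 7.33 and 7.64 in Zeb2low, and 8.10 and 7.69 in pre-CD8 DC arrays. It was 2.82-fold lower in Zeb2low CDPs (-1.498, SE 0.248, adjusted p = 0.00771), with all Zeb2low arrays below the lowest Zeb2hi array. Psmc1 (-0.89, adjusted p = 0.0206), Psmc5 (-0.68, adjusted p = 0.0253) and Psmc2 (-0.61, adjusted p = 0.0275) were lower, each in 3 to 5 of 8 leave-one-out fits and none under quantile normalization. Psmc6 (-0.68, adjusted p = 0.0594) and Psmc3 (-0.47, adjusted p = 0.0648) did not pass.

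Of the 11 non-ATPase subunits, which hold the cap together and receive and trim ubiquitin chains, 6 were lower with a median of -0.79. Psmd7, the partner of the deubiquitinase Psmd14, had 8.32, 8.76 and 8.84 in Zeb2hi, 7.44, 7.22 and 7.26 in Zeb2low, and 7.60 and 7.31 in pre-CD8 DC arrays. It was 2.52-fold lower in Zeb2low CDPs (-1.33, SE 0.177, adjusted p = 0.00342). Psmd1, the large scaffold subunit that binds ubiquitin receptors, had 8.90, 8.89 and 9.27 in Zeb2hi, 8.01, 8.12 and 8.11 in Zeb2low, and 7.74 and 7.75 in pre-CD8 DC arrays. The 3 groups did not overlap, with the pre-CD8 DC arrays lowest, and it was 1.91-fold lower in Zeb2low CDPs (-0.94, SE 0.148, adjusted p = 0.00653).

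Psmd12, a lid subunit, had 8.93, 9.19 and 9.08 in Zeb2hi, 8.30, 8.06 and 8.06 in Zeb2low, and 8.02 and 7.95 in pre-CD8 DC arrays, and was 1.90-fold lower in Zeb2low CDPs (-0.93, SE 0.14, adjusted p = 0.00568). Psmd6, another lid subunit, was 1.96-fold lower (-0.97, adjusted p = 0.00966), Psmd8 1.76-fold (-0.82, adjusted p = 0.0366) and Psmd14 1.73-fold (-0.79, adjusted p = 0.0353). These last 3 genes did not pass under quantile normalization. The 5 that missed the threshold were Psmd2, Psmd3, Psmd4, Psmd11 and Psmd13, with differences from -0.75 to -0.27. The ubiquitin receptor Psmd4 was among them (-0.45, adjusted p = 0.0993). The second probe set of Psmd2 gave -0.80 where the one used gave -0.27.

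**Figure D3:**
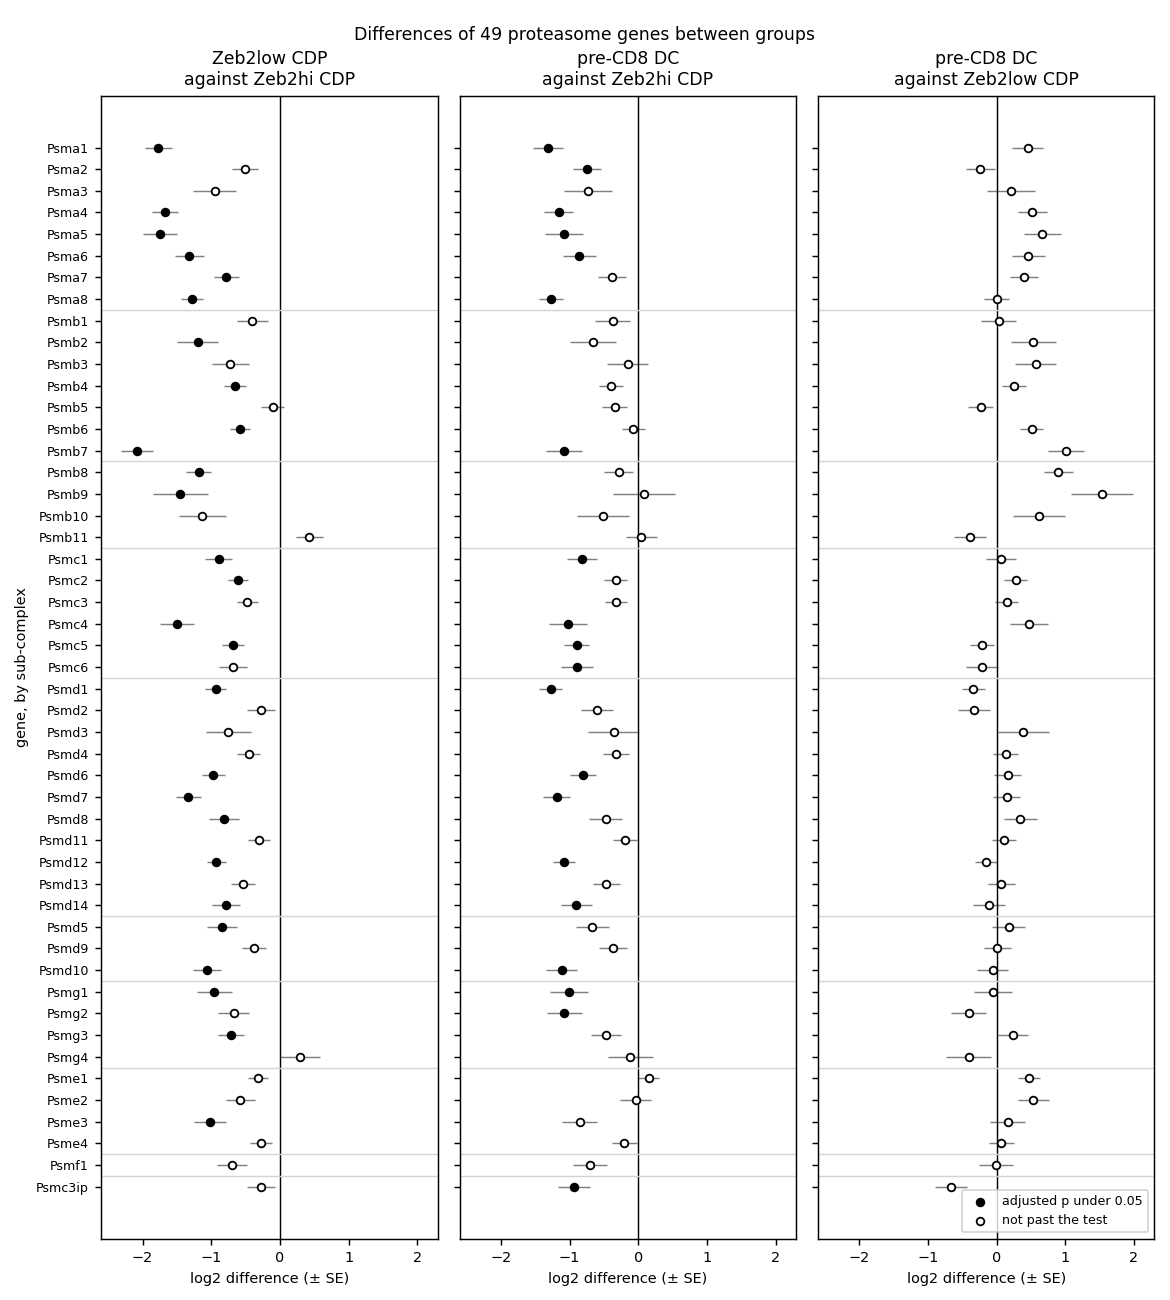
The log2 difference of each of the 49 genes with its standard error, in 3 comparisons, grouped by sub-complex between grey lines. Filled points have an adjusted p under 0.05: 27 in Zeb2low against Zeb2hi CDPs, 20 in pre-CD8 DCs against Zeb2hi CDPs and 0 in pre-CD8 DCs against Zeb2low CDPs.

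Among the assembly factors, Psmd10 (gankyrin) and Psmd5, chaperones of the ATPase ring, were lower in Zeb2low CDPs (-1.06, adjusted p = 0.0127, and -0.85, adjusted p = 0.0322), and the third, Psmd9, did not pass (-0.38, adjusted p = 0.169). Psmg1 and Psmg3, chaperones of the alpha ring, were also lower (-0.96, adjusted p = 0.0364, and -0.71, adjusted p = 0.0391), each in 3 of 8 leave-one-out fits and neither under quantile normalization. Psmg2, the partner of Psmg1, did not pass (-0.67, adjusted p = 0.0788), and neither did Psmg4, the partner of Psmg3.

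The activators open the core without a 19S cap. Psme3, the nuclear PA28 gamma, was 2.02-fold lower in Zeb2low CDPs (-1.02, SE 0.231, adjusted p = 0.023, 5 of 8 leave-one-out fits). Psme1 and Psme2 form the interferon-inducible PA28 ring. Psme1 had 10.36, 10.50 and 10.61 in Zeb2hi, 10.22, 10.26 and 10.02 in Zeb2low, and 10.69 and 10.59 in pre-CD8 DC arrays. The Zeb2low arrays were the lowest, but the difference of -0.32 did not pass (adjusted p = 0.15) and was 0.07 under quantile normalization. Psme2 had 9.27, 9.49 and 9.72 in Zeb2hi, 8.95, 9.25 and 8.56 in Zeb2low, and 9.55 and 9.36 in pre-CD8 DC arrays (-0.57 between the CDP groups, adjusted p = 0.0926). Psme4, the PA200 activator (-0.28, adjusted p = 0.26), and the inhibitor Psmf1 (-0.70, adjusted p = 0.0673) did not pass.

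The second comparison sets pre-CD8 DCs against Zeb2hi CDPs. Proteasome genes of the alpha ring and the cap were lower in pre-CD8 DCs, while none of the 3 immunoproteasome genes passed. Of the 49 genes, 20 were lower (40.8%), where 11.1% of all genes were, and 19 of the 48 without Psmc3ip. None was higher, against 6.51% of all genes, and none at an unadjusted p under 0.05. The median was -0.66, against -0.02 over all genes, and 12 of the 49 were at least 2-fold lower, where 5.89% of all genes were. In 32 of the 49 both pre-CD8 DC arrays lay below all Zeb2hi arrays, which 27.1% of all genes did, and in none above them (21.4% of all genes). This comparison shares its Zeb2hi arrays with the first, so they are not independent. The count was 8 without Zeb2hi array 2, 8 without Zeb2hi array 3 and 11 under quantile normalization. It also fell without either pre-CD8 DC array, which leaves 1 array in that group. Lower calls over all 13356 genes fell from 1483 to 709 without Zeb2hi array 2 and to 773 without Zeb2hi array 3. Quantile normalization gave 2057 calls over all genes in both directions, against 2352 as reported.

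By sub-complex, 6 of 8 alpha genes (median -0.97), 1 of 7 beta ring genes (-0.37), 4 of 6 ATPases (-0.86) and 5 of 11 non-ATPase subunits (-0.59) were lower. Psmd1 was 2.42-fold lower (-1.27, SE 0.165, adjusted p = 0.00209), Psmd7 2.27-fold (-1.19, SE 0.198, adjusted p = 0.00548) and Psmd12 2.11-fold (-1.08, SE 0.157, adjusted p = 0.00307). These 3 cap genes passed in all 8 leave-one-out fits, as did Psma1 (-1.31, adjusted p = 0.00582), Psma4 (-1.16, adjusted p = 0.00745) and Psma8 (-1.27, adjusted p = 0.00268). Psma8, counted among the 6 alpha genes, had its low signals in all but the Zeb2hi arrays, through which the filter may have kept it. It was not tested under the stricter filter, where 19 of the 20 calls remained and Psme3 was gained. In the beta ring the single gene was Psmb7 (-1.08, SE 0.262, adjusted p = 0.0236, 5 of 8 leave-one-out fits). Among the ATPases, Psmc4 (-1.02, adjusted p = 0.0364), Psmc5 (-0.89, adjusted p = 0.0117), Psmc6 (-0.89, adjusted p = 0.0305) and Psmc1 (-0.82, adjusted p = 0.0334) were lower. In that order, these ATPases passed in 2, 7, 3 and 2 of 8 leave-one-out fits. Of the chaperones, Psmd10 (-1.11, adjusted p = 0.0121, 7 of 8), Psmg2 (-1.08, adjusted p = 0.0207, 4 of 8) and Psmg1 (-1.01, adjusted p = 0.0397, 4 of 8) were lower. The recombination factor Psmc3ip was lower too (-0.94, adjusted p = 0.0252, 4 of 8). Of the genes named for this comparison, Psmc1, Psmc6, Psmg1, Psmg2 and Psmc3ip did not pass under quantile normalization. Psmb7, Psmc1, Psmc4, Psmc6 and Psmg1 did not pass with the replicate block over all arrays, although same-numbered pre-CD8 DC and CDP arrays did not deviate together.

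The immunoproteasome genes and PA28 gave no call here. Psmb8 differed by -0.29 (SE 0.207, adjusted p = 0.387), Psmb9 by 0.09 (SE 0.448, adjusted p = 0.916) and Psmb10 by -0.52 (SE 0.379, adjusted p = 0.391), and for each the arrays overlapped. None of the 3 had an unadjusted p under 0.05. Psmb9 was 12.06 in pre-CD8 DC array 1, above all Zeb2hi arrays, and 10.73 in array 2, and without array 1 its difference was -0.57. Psme1 (0.15, adjusted p = 0.549) and Psme2 (-0.04, adjusted p = 0.926) did not pass, and Psmb6 (-0.07, adjusted p = 0.811) and Psmb5 (-0.34, adjusted p = 0.24) did not either. These misses do not show that the levels were equal.

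The third comparison sets pre-CD8 DCs against Zeb2low CDPs, and no proteasome gene passed it in either direction. limma called 0 of the 49 genes lower, where 0.217% of all genes were, and 0 higher, where 0.337% were. At an unadjusted p under 0.05 in limma, 8 of the 49 were higher, and the 1 lower gene was Psmc3ip (-0.67), no proteasome gene. The share of all genes at that threshold was not taken in any comparison, so the unadjusted counts have no background to be read against. With all arrays, the differences were above 0 for 34 of the 49 genes, where 6190 of all 13356 genes were. The median was 0.15 against -0.03 over all genes. Leaving out pre-CD8 DC array 2 leaves 1 array in that group. The median of the 49 was then 0.25, against -0.07 over all genes. In 11 of the 49 genes both pre-CD8 DC arrays lay above all Zeb2low arrays, a larger share than the 12.4% of all genes. In 5 they lay below, a smaller share than the 15.4% of all genes.

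The largest differences of the 49 were those of Psmb9 (1.54, SE 0.448, adjusted p = 0.201), Psmb7 (1.01, SE 0.262, adjusted p = 0.157) and Psmb8 (0.90, SE 0.207, adjusted p = 0.115). For these 3 both pre-CD8 DC arrays lay above all Zeb2low arrays. Psmb10 differed by 0.61 (SE 0.379, adjusted p = 0.52), and its pre-CD8 DC array 2 fell among the Zeb2low arrays. Psme2 (0.54, adjusted p = 0.372), Psmb6 (0.51, adjusted p = 0.25) and Psme1 (0.47, adjusted p = 0.253) were also above 0 without overlap. The medians were 0.90 over the immunoproteasome genes, 0.43 over the alpha ring, 0.51 over the beta ring, 0.11 over the ATPases and 0.11 over the non-ATPase subunits. Psmd1 differed by -0.34 (adjusted p = 0.418), with both pre-CD8 DC arrays below all Zeb2low arrays.

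Genes that work with the proteasome were read from lists of its partners, its transcriptional control, its ubiquitin supply and the class I pathway. Of 8 partner genes tested, 3 were lower in Zeb2low than in Zeb2hi CDPs, where 10.3% of all genes were. Usp14, the deubiquitinase bound to the cap, had 8.29, 8.45 and 8.35 in Zeb2hi, 7.44, 7.08 and 7.35 in Zeb2low, and 6.83 and 7.18 in pre-CD8 DC arrays. Against Zeb2hi CDPs it was lower both in Zeb2low CDPs, by a log2 difference of -1.07 (adjusted p = 0.0054), and in pre-CD8 DCs, by -1.36 (adjusted p = 0.00209). Pomp, the chaperone that completes the core, was lower in Zeb2low CDPs (-0.75, adjusted p = 0.0419, 3 of 8 leave-one-out fits), as was Akirin2, which brings proteasomes into the nucleus (-0.60, adjusted p = 0.0315, 2 of 8). Neither passed under quantile normalization (adjusted p = 0.223 and 0.106). In pre-CD8 DCs, Ecpas, a proteasome-binding scaffold, was lower beside Usp14 (-0.55, adjusted p = 0.0353, 1 of 8), but not under quantile normalization (adjusted p = 0.0916).

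Of 10 genes for ubiquitin supply and shuttling, 2 were lower in both groups against Zeb2hi CDPs, where 10.3% and 11.1% of all genes were. Vcp, the segregase that extracts ubiquitinated proteins, had 8.95, 9.45 and 9.43 in Zeb2hi, 7.80, 7.96 and 7.81 in Zeb2low, and 8.32 and 7.91 in pre-CD8 DC arrays. The log2 difference from Zeb2hi CDPs was -1.42 for Zeb2low CDPs (adjusted p = 0.00322) and -1.16 for pre-CD8 DCs (adjusted p = 0.00699). Faf2, a cofactor of Vcp, was lower in the same comparisons (-0.91, adjusted p = 0.00792, and -0.76, adjusted p = 0.0182). None of the 6 genes of transcriptional control passed in the reported limma fit in any comparison. Mafg was higher between the CDP groups at an unadjusted p under 0.05 (0.34). It passed under quantile normalization (0.50, adjusted p = 0.0360), but not after median centring (adjusted p = 0.385) or with the CDP block (adjusted p = 0.0806). Nfe2l1, another of the 6, raises proteasome genes when the proteasome is blocked. It differed by -0.28 between the CDP groups (adjusted p = 0.211).

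None of 7 genes of interferon control and class I loading passed between the CDP groups in the reported limma fit. Erap1 was lower at an unadjusted p under 0.05 (-0.58, adjusted p = 0.0522). It passed after median centring (adjusted p = 0.0183) and with the CDP block (adjusted p = 0.0487), but not under quantile normalization (adjusted p = 0.181). Tap1 had 7.90, 8.08 and 8.29 in Zeb2hi, 7.65, 8.02 and 8.17 in Zeb2low, and 8.997 and 8.73 in pre-CD8 DC arrays. The CDP arrays overlapped (-0.14, adjusted p = 0.601) and both pre-CD8 DC arrays lay above them, higher than Zeb2hi CDPs by 0.77 (adjusted p = 0.0323, 3 of 8 leave-one-out fits). Tap2 was higher in pre-CD8 DCs by 0.83 (adjusted p = 0.0141), and Erap1, which trims peptides in the endoplasmic reticulum, was lower (-0.88, adjusted p = 0.0155). Whether Tap1 and Psmb9 differ in their change was not tested. No gene of the 4 lists passed between pre-CD8 DCs and Zeb2low CDPs in limma, where Tap1 and Tap2 (0.92 and 0.66, adjusted p = 0.105 and 0.162) were the class I genes with an unadjusted p under 0.05.

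**Figure D4:**
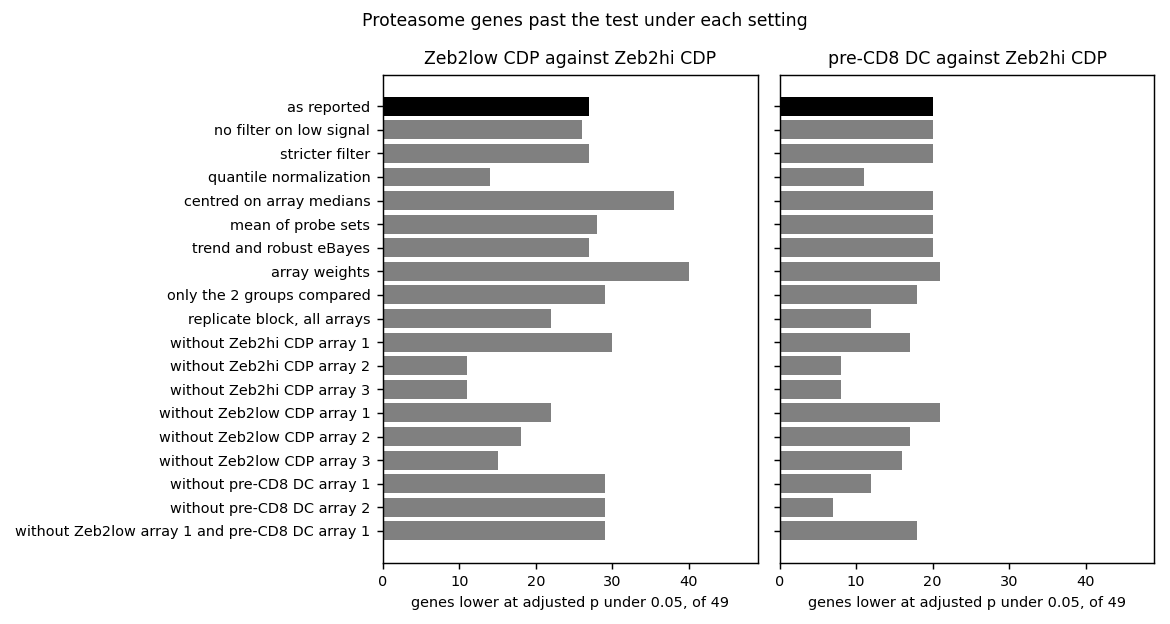
The number of the 49 genes lower at an adjusted p under 0.05 (horizontal axis) under each processing setting (rows) that could be applied to both comparisons, with the reported setting in black. In Zeb2low against Zeb2hi CDPs the count runs from 11 to 40, and in pre-CD8 DCs against Zeb2hi CDPs from 7 to 21.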

How the data were processed

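The authors deposited intensity values, linear and summarised per probe set by RMA. The submitters' processing notes name Affymetrix Expression Console for this step, without a version. The table holds 28853 probe sets for 8 arrays, of which 21789 name 1 gene, 1621 several and 5443 none in the annotation used, and only the first kind was kept. Groups came from the sample titles. RMA gives no detection call, and small RNA amounts were amplified, per the labels' protocols. The number of arrays limits the precision.

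Intensities were log2 transformed and filtered (2 arrays above their 40th percentile), and each gene took its brightest probe set by mean signal, leaving 13356 genes. limma 3.58.1 in R 4.3.3 fitted all arrays together (5 residual degrees of freedom), with adjustment over all genes and a threshold of 0.05. Subunit combinations used exact permutation over arrays. Scripts were tested on simulated data. Same-numbered CDP arrays deviated from their group means together (r of 0.48, 0.41 and 0.31), while arrays of unlike number gave -0.42 to 0.14. Replicate number was therefore used as a block in alternative fits alone, and the reported fit has none. The labels give no mouse or sort behind each array, so this pairing was inferred from these same data. Same-numbered pre-CD8 DC and CDP arrays did not deviate together.

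The members and lists were chosen with earlier results of these data known. Genes were named by sub-complex: the immunoproteasome, its partners and PA28, of the rest the 3 called genes of largest difference (or, with no call, the gene of lowest p), and the highest and lowest mean signals. Others named complete a count, or were picked after their values were seen. Alternatives were the filter, scaling, probe set rule, variance model, array weights, groups fitted, replicate block and each array left out.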

Additional observations from a re-analysis of the deposited data

How the results depend on the processing

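The count of proteasome genes lower in Zeb2low than in Zeb2hi CDPs was 27, with 14 under quantile normalization and 11 to 30 when single arrays were left out. With a replicate block it was 22 over all arrays and 35 over the CDP arrays alone. The block over all arrays lost Psmb2, Psmb9, Psmc5, Psmd5, Psmd8 and Psmg1 and gained Psma3. Calls over all genes in both directions were 1552 and 4070 with these blocks, against 1978 as reported. The count in pre-CD8 DCs against Zeb2hi CDPs was 20, with 11 under quantile normalization, 12 with a replicate block over all arrays and 7 to 21 with single arrays left out. Against Zeb2low CDPs it was 0 higher and 0 to 2 with single arrays left out. The cause was not tested. Without Zeb2low array 1 and pre-CD8 DC array 1, an alternative chosen after seeing the data, the counts were 29 and 18. Lower calls were 69.6% of all calls between the CDP groups, 85.8% after median centring and 59.1% under quantile normalization, with 63.1%, 71.5% and 55.0% in pre-CD8 DCs against Zeb2hi CDPs.

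In pre-CD8 DCs against Zeb2low CDPs, 15 of the 49 genes were below 0 as reported. Under quantile normalization 20 were, and after median centring 12, so genes not listed here turned as well. Among the genes chosen by the naming rule and the subunit combinations, signs turned for uncalled values alone. Under quantile normalization these were Psmb5 (0.29) and Psme1 (0.0681) between the CDP groups, and Psmb6 (0.16), Psme2 (0.10) and Psmb11 (-0.0478) in pre-CD8 DCs against Zeb2hi CDPs. Median centring turned Psmf1 (0.0895, against Zeb2low) and Psmb11 (-0.026, against Zeb2hi). Array weights turned Psma8 (-0.0386) and Psmf1 (0.0355) against Zeb2low, and Psmb9 (-0.18) and Psmb11 (-0.0291) against Zeb2hi, and the replicate block over all arrays turned Psmf1 (0.0607). Without both arrays named above, Psmb10 (-0.19) and Psmd5 (-0.0987) turned against Zeb2low CDPs, and Psmb6 (0.0329) and Psmb9 (-0.57) against Zeb2hi CDPs. With single arrays left out, the ranges that cross 0 were, against Zeb2low CDPs, -0.13 to 0.14 for Psma8, -0.0928 to 0.44 for Psmd5 and -0.30 to 0.30 for Psmf1. Against Zeb2hi CDPs they were -0.18 to 0.0329 for Psmb6, -0.59 to 0.0223 for Psmb8, -0.57 to 0.75 for Psmb9, -1.11 to 0.0734 for Psmb10, -0.20 to 0.29 for Psmb11, -0.15 to 0.0761 for Psme2, -0.44 to 0.55 for Psmb8 minus Psmb5 and -0.61 to 0.92 for Psmb9 minus Psmb6.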
